A study of Mus musculus with 4 samples.

Results

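Malat1, Neat1, Gas5, Snhg1, Meg3 and Kcnq1ot1 are long noncoding RNAs, transcripts that work as RNA and are not translated into a known protein. They were taken as these 6 names, and 5 of them were found by name among the 38924 genes of the mouse kidney count tables. Kcnq1ot1 was not analysed here. As a group they are not uniformly abundant. Neat1 ranked 158 to 608 and Malat1 189 to 347 by reads across the 4 libraries, Gas5 ranked 5049 to 6501, Snhg1 10208 to 11479 and Meg3 14717 to 18734. Of 4190 long noncoding genes, counted with Snhg1, Neat1 ranked 4 to 10 and Malat1 5 to 7.

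The kidneys came from female CB-17 SCID mice on a Balb/c background, which lack functional B and T cells. The 2 control samples had saline by tail vein. The 2 treated samples had IgG-Gd-IgA1 immune complexes by the same route, made of IgG bound to IgA1 that lacks galactose, in a passive model of IgA nephropathy. There were 3 doses within 7 days, and tissue was taken 1 day after the last. Ages are not given. Saline 1 stood apart from the other libraries in its tissue markers, with an adipocyte sum of 56.9 CPM against 634.5 CPM in saline 2, and the fitted changes of the 5 RNAs are given with and without it. Nothing says that the 4 libraries stand for 4 animals, and p-values then measure only the spread between these samples.

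Malat1 and Neat1 are kept in the nucleus. Malat1 gathers at nuclear speckles, where splicing factors are stored, and Neat1 is the scaffold around which paraspeckles assemble. Neat1 has a short polyadenylated form and a long form that reads through the short form's end, and only the long form builds paraspeckles. Gas5 and Snhg1 are host genes: their introns are processed into small nucleolar RNAs (snoRNAs), which guide methylation of ribosomal RNA, and their spliced exons are degraded through nonsense-mediated decay. Meg3 and Kcnq1ot1 are imprinted, Meg3 expressed from the maternal and Kcnq1ot1 from the paternal chromosome.

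The ends of Neat1 and Malat1 are shown first, because the read counts turn on which form each gene model covers. They are the last 100 bases of the long form of Neat1 (GRCm38 chr19:5824708-5824807, minus strand), the last 100 bases of its short form (chr19:5842307-5842406, minus strand), and a stretch of the longest Malat1 model whose end lies 292 bases before that model's end (chr19:5795982-5796081, minus strand). All are read 5′ to 3′ from GENCODE M21 transcripts and lie in exons of these models. Capitals mark TTTCTTTT, TTTGCTTT and AAAAGCAAA, the letters of the U-rich elements and A-rich tract that form a triple helix at these ends in place of a poly(A) tail, or AATAAA, the polyadenylation signal.
Neat1 long form: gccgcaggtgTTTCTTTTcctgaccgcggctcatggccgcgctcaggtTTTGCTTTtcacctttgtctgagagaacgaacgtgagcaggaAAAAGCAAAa
Malat1: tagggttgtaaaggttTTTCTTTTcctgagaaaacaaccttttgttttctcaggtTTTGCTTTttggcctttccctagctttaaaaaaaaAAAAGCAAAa
Neat1 short form: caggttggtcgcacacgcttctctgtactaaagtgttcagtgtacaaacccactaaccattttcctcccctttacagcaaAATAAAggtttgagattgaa

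The long Neat1 end holds all 3 tract motifs, searched on the transcript's own strand, and no AATAAA. The Malat1 stretch was placed so as to end with the A-rich tract, so its motifs were part of how it was chosen and it is shown only to be read beside Neat1. The motifs were the known letters of these ends, so their presence at the Neat1 end was given in advance. Among the last 100 bases of 15659 long noncoding transcripts, TTTCTTTT was present in 1.19%, TTTGCTTT in 0.620% and AAAAGCAAA in 0.249%. All 3 were present in 1 transcript, the long form of Neat1 itself. The short Neat1 end held AATAAA 14 bases from its end, as did 32.8% of those transcripts anywhere in their last 100 bases. RNase P cuts both RNAs at the A-rich tract and releases a small tRNA-like RNA. The feature for this small RNA directly beyond the Neat1 end (56 bases) had 0 reads in each of the 4 libraries, which allows up to 3 reads in each, for counting error only. The sources used here give neither size selection nor poly(A) selection.

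Malat1 lies at GRCm38 chr19:5795690-5802672, minus strand, 22.0 kb from Neat1. It had 6989 and 9092 reads after saline, against 11375 and 7254 after immune complexes. In CPM, the read count scaled to library size and composition, this was 343.8 and 430.1 against 509.7 and 342.8. Immune complex 1 was the highest and immune complex 2 the lowest library, so the groups overlapped.

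Hardly any Malat1 read crossed an exon junction. The count tables call 1834 of its 6983 bases exon and the other 5149 intron, whereas its longest GENCODE M21 model is a single exon over the whole gene. Reads counted as intron were 79.0% and 79.3% of the Malat1 reads after saline, against 80.3% and 77.7%. Per kilobase, the bases counted as intron had 1073, 1400, 1773 and 1095 reads (saline 1, saline 2, immune complex 1, immune complex 2). The bases counted as exon had 799.3, 1028, 1224 and 881.7 reads per kilobase, lower in every library. Junction reads numbered 5, 2, 3 and 3. What the tables count as Malat1 introns is therefore sequence of its single-exon transcript, and an exon-only count leaves most of it out.

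Neat1 lies at GRCm38 chr19:5824708-5845478, minus strand. It had 4567 and 9443 reads after saline, against 13457 and 5322 after immune complexes, or 224.7 and 446.7 CPM against 603.0 and 251.5 CPM. One library of each group was high and the other low: saline 2 held 1.99 times the level of saline 1, and immune complex 1 held 2.40 times that of immune complex 2. Over all tested genes, the size of the log2 difference was smaller than that of Neat1 for 93.9% of genes between the saline libraries and for 95.5% between the immune complex libraries.

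For Neat1 the split between exon and intron separates the forms over most of the bases, but not cleanly by reads. The 3004 bases the tables count as exon equal the exon length of the short form, and nearly all of the 17767 bases counted as intron lie beyond its end, where the long form runs on. Most of the rest form the intron between the short form's 2 exons. Reads per kilobase over the exon bases were 1358, 2854, 4120 and 1620, in the same library order as above. Over the bases counted as intron they were 27.4, 48.9, 60.8 and 25.6. The bases counted as intron were thus read at 2.02%, 1.71%, 1.48% and 1.58% of the density of the exon bases, which both forms share. Both densities were highest in immune complex 1 and next in saline 2. Because few reads crossed a junction, unspliced short-form reads may lie among those counted as intron. Their part was not separated, so these values are not the density of the long form. Evenness of coverage along the transcript was not tested. Reads that cross an exon junction numbered 12, 16, 14 and 7, and reads placed at more than 1 location were 7.35% to 9.52% of the Neat1 and 6.84% to 9.16% of the Malat1 reads.

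The share of Neat1 reads counted as intron, which is not the share of the long form alone, was 10.7% (95% Wilson interval 9.80 to 11.6) and 9.20% (8.64 to 9.80) in saline. It was 8.03% (7.59 to 8.50) and 8.55% (7.83 to 9.33) in immune complex libraries. The groups did not overlap, but the intervals of saline 2 and immune complex 2 did, and these cover counting error only. No test was run, since 2 libraries against 2 give an exact permutation p of 0.33 at the least. Of 11548 genes with at least 400 reads over the 4 libraries, 5.36% had a lower intron share in both immune complex libraries than in either saline library and 26.3% a higher one. Neat1 was the only one of the 4 members with that many reads whose groups did not overlap in this share. Snhg1, however, has 0 bases counted as intron and Gas5 had 2 to 7 such reads a library. Malat1 was thus the only useful comparison.

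**Figure D1:**
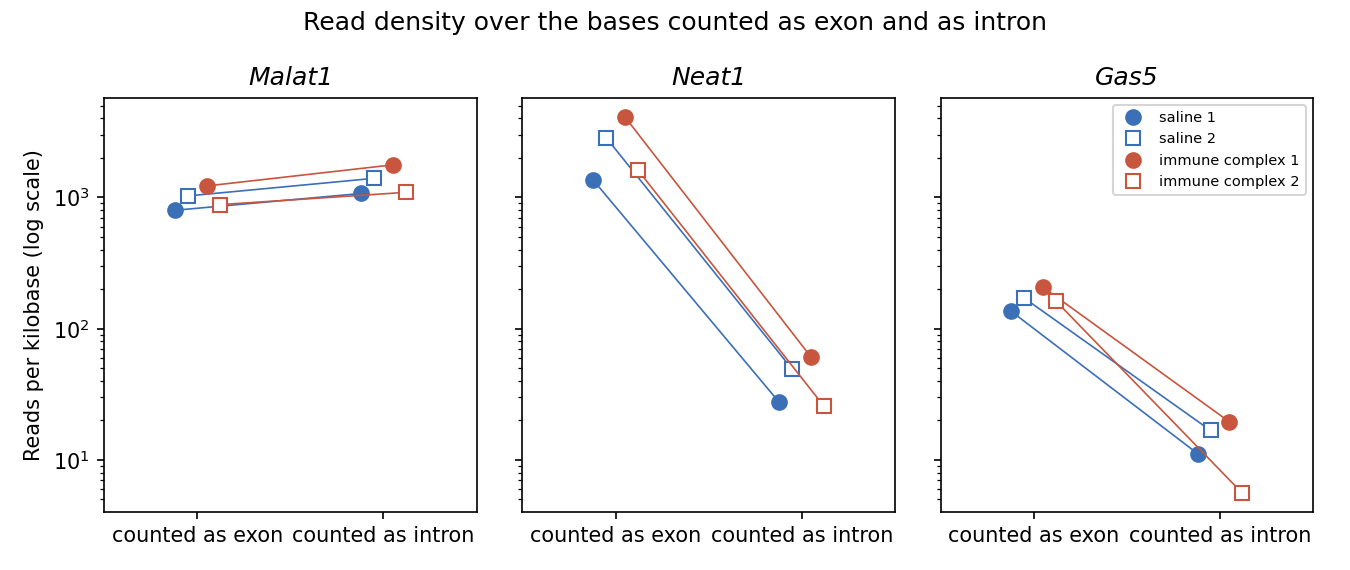
Reads per kilobase (log scale) over the bases counted as exon and as intron of Malat1, Neat1 and Gas5, with 1 point per library and a line joining the values of 1 library. Malat1 is read slightly more densely over its so-called introns, while Neat1 falls from 1358 to 4120 reads per kilobase over exon bases to 25.6 to 60.8 over intron bases.

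The order of levels between the RNAs depended on the length used. By the authors' RPKM, exon reads per kilobase of exon and scaled to depth, Neat1 had 69.0, 136.2, 180.8 and 74.7 and Malat1 40.6, 49.1, 53.7 and 40.7 in the same library order, so Neat1 was above Malat1 in every library. With all gene reads over the whole gene length, a scale added after the data were seen, Malat1 had 50.9, 62.1, 71.5 and 47.9 on the same kind of scale. There Neat1 had 11.2, 21.7, 28.4 and 11.8 and lay below Malat1 in every library. Neither pair of ranges overlapped. Gas5 followed with 6.88 to 9.08 RPKM, Snhg1 with 1.62 to 2.87 and Meg3 with 0.00281 to 0.0340, and none of these ranges overlapped the next.

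Gas5 and Snhg1, the snoRNA hosts, are shown with their first bases and with snoRNAs they carry. Genes of the translation machinery often start with a tract of pyrimidines (a 5′ TOP), and Gas5 is a known member of that class. The windows run from 15 bases before to 15 from the start, on the plus strand, out of RefSeq promoter windows of build GRCm38.p6 (Gas5 in chr1:161034916-161035215, Snhg1 in chr19:8723237-8723536). Capitals mark the unbroken pyrimidines from the annotated start.
Gas5: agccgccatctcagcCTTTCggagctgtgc
Snhg1: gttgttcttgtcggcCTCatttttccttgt

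A run of at least 5 pyrimidines that starts with C at the annotated start was found in 2.51% of the 32851 promoter windows of the table and one of at least 3 in 5.81%. A second Gas5 start in the table, in chr1:161034351-161034650, has no such run. Of the 6 names, 5 had a window in that table.

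The snoRNAs are Snord80 (chr1:161037601-161037681) and Snord47 (chr1:161038082-161038158), both inside Gas5 on the plus strand, and Snord22 (chr19:8725866-8725991), inside Snhg1 on the plus strand. Capitals mark TGATGA and CTGA, the letters of the C and D boxes of this snoRNA class, wherever they occur on this strand. Snord22 holds CTGA 2 times and TGATGA 0 times, so no C box letters are marked in it. Gas5 and Snhg1 are shown with them because the mature snoRNAs are the known products of both genes.
Snord80: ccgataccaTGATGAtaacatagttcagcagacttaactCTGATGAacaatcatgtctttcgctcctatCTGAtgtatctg
Snord47: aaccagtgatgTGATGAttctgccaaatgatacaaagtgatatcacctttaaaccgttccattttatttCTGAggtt
Snord22: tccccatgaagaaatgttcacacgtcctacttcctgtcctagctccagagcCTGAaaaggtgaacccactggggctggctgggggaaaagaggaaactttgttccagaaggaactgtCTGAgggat

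These snoRNAs were next to unread as features of their own. The 9 small RNA features inside Gas5 had 2 reads in all over the 4 libraries, and the 8 inside Snhg1 had 1. The 3 small features inside Neat1 likewise had 8 reads in all, although Neat1 itself was densely read. Such low counts therefore cannot show that the snoRNAs were unread. The values below are those of the host genes, and snoRNA reads may be counted in them.

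Gas5 lies at GRCm38 chr1:161034422-161038539, plus strand, and had 513 and 648 reads after saline, against 785 and 611 after immune complexes. In CPM this was 25.2 and 30.7 against 35.2 and 28.9, so the groups overlapped. Gas5, unlike Malat1, was read mostly across exon junctions. Reads crossing an exon junction were 82.9%, 81.2%, 79.0% and 83.9% of its exon reads (saline 1, saline 2, immune complex 1, immune complex 2). Intron reads numbered 4, 6, 7 and 2, over the 358 bases that none of its 25 models counts as exon.

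Snhg1 lies at GRCm38 chr19:8723496-8726442, plus strand, and had 94 and 177 reads after saline, against 174 and 154 after immune complexes. In CPM this was 4.62 and 8.37 against 7.80 and 7.28. Saline 1 was the lowest library, while the other 3 lay close together. Junction reads were 44.7%, 35.0%, 36.4% and 38.3% of its exon reads. All 2947 of its bases count as exon in the tables, so its intron reads cannot be separated there and the share is not comparable with that of Gas5.

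Meg3 lies at GRCm38 chr12:109541001-109571726, plus strand. It had 2 and 20 reads after saline, against 18 and 13 after immune complexes, or 0.0984 and 0.946 CPM against 0.807 and 0.614 CPM. Saline 1 was again the lowest library. Mir770, a microRNA inside it, had 0 reads in every library. For a feature nested in a larger gene this does not show its absence.

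The GENCODE M21 model of Kcnq1ot1 lies at chr7:143203458-143296549, minus strand, inside Kcnq1, a potassium channel gene on the other strand. The 4 short features named after segments of it, which are listed on the plus strand, had 0 reads in all libraries. Small features nested in Neat1 were nearly unread too, so these counts do not show whether Kcnq1ot1 was read. Kcnq1 intron reads, which could hold reads of either gene where strand is not used, numbered 66 and 114 after saline, against 115 and 113, over 316760 bases. That is 0.208, 0.360, 0.363 and 0.357 reads per kilobase, with saline 1 below the others.

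**Figure D2:**
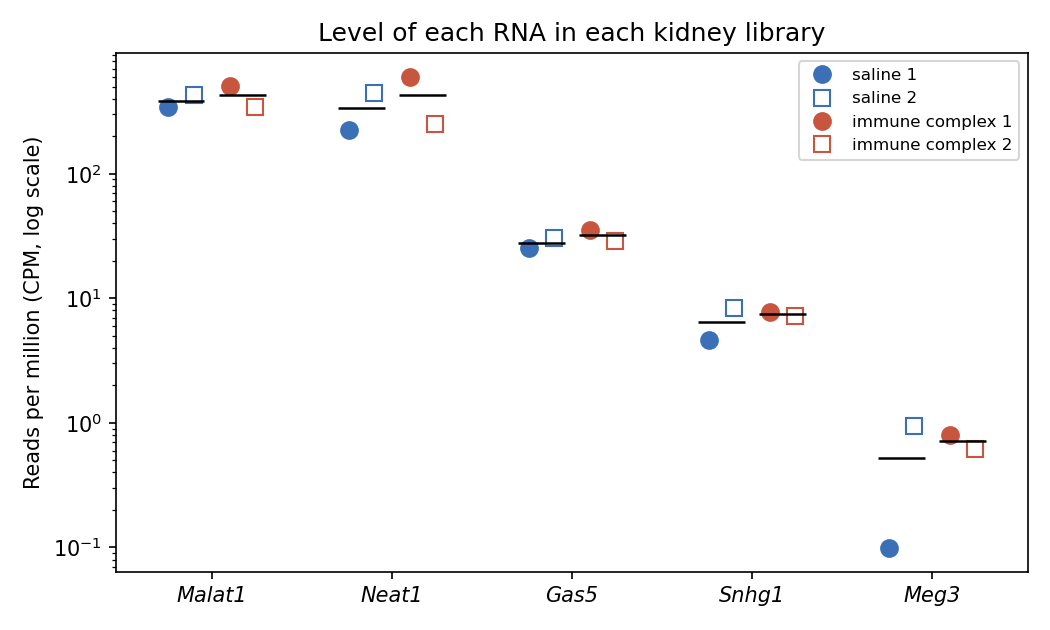
CPM (log scale) of each RNA in each library, with the mean of each group of 2 as a black bar. Malat1 and Neat1 lie at 224.7 to 603.0 CPM, Gas5 at 25.2 to 35.2, Snhg1 at 4.62 to 8.37 and Meg3 at 0.0984 to 0.946, and the groups overlap for all 5.

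Immune complex against saline was tested with edgeR's quasi-likelihood test and Benjamini-Hochberg adjustment over all 16334 genes with enough reads. None of the 5 RNAs passed at an adjusted p of 0.05, and 0.0% of all tested genes did. At an unadjusted p under 0.05 there were 749 genes, none of them a member, and DESeq2 called 91 and limma-voom 0. Of all tested genes, 15.4% were higher in both immune complex libraries than in either saline library and 14.6% were lower in both. None of the 5 RNAs was either.

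The mean of Malat1 was 386.9 ± 61.0 CPM after saline, against 426.3 ± 118.0 after immune complexes (SD, n = 2 each). Its fitted log2 fold change was 0.14 ± 0.25 (standard error), with a 95% interval of -0.45 to 0.73 and an edgeR adjusted p of 1.0. In plain folds the interval runs from 0.731 to 1.66.

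Neat1 stood at 335.7 ± 157.0 CPM after saline, against 427.3 ± 248.6 (SD, n = 2 each). The log2 fold change was 0.35 ± 0.47, with an interval of -0.77 to 1.47, and the spread within each group was as large as any difference between them. Gas5 had the narrowest interval of the 5, with a log2 fold change of 0.20 ± 0.20 (-0.28 to 0.67) on 27.9 ± 3.83 and 32.0 ± 4.46 CPM. In plain folds that interval runs from 0.823 to 1.60.

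Snhg1 had a log2 fold change of 0.21 ± 0.33 (-0.58 to 1.0) and Meg3 one of 0.43 ± 0.83 (-1.55 to 2.41), the widest of the 5. Every edgeR adjusted p of the 5 was 1.0. All 5 fitted values were above 0, as were 51.9% of the values of all tested genes, and only that of Gas5 stayed above 0 when each library was left out in turn. Without saline 1, Malat1 stood at -0.015, Neat1 at -0.066, Snhg1 at -0.15, Meg3 at -0.41 and Gas5 at 0.061. Without immune complex 1, Malat1 stood at -0.17 and Neat1 at -0.42, while Neat1 stood at 0.92 without saline 2 and 0.84 without immune complex 2. Meg3 stood at 2.77 without saline 2, a value that rests on the 2 reads of saline 1.

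**Figure D3:**
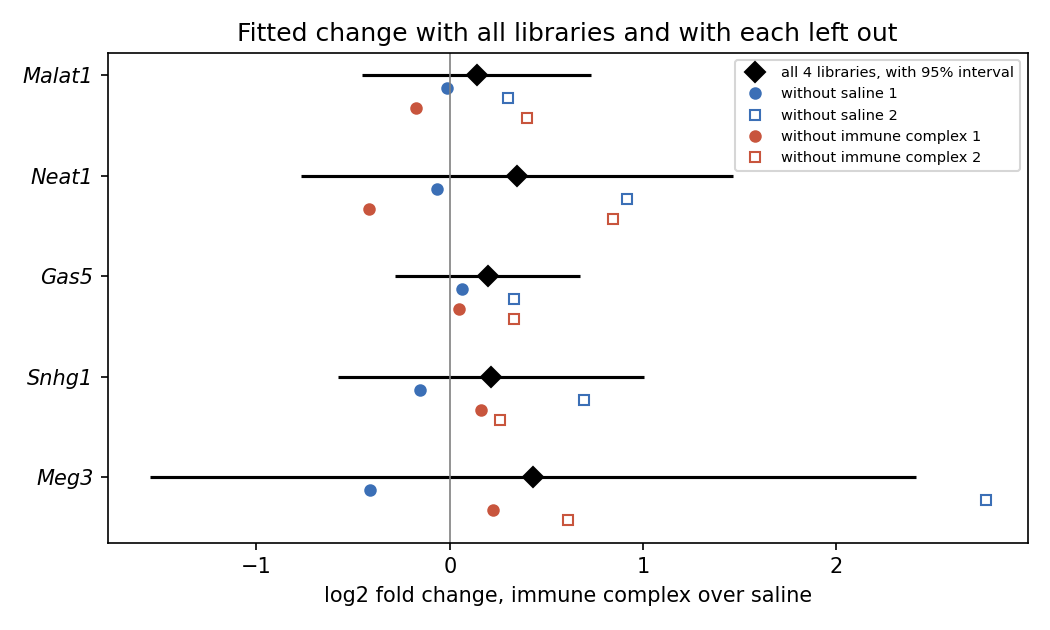
Fitted log2 fold change, immune complex over saline, with its 95% interval (black) and with each library left out (coloured points). All 5 intervals cross 0, and the Neat1 points range from -0.42 to 0.92.

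In the authors' deposited table of their own comparison, coded as saline over immune complex, the log2 fold changes were -0.10 for Malat1, -0.08 for Neat1, -0.14 for Gas5, -0.11 for Snhg1 and -0.06 for Meg3. The adjusted p-value given there was 1.0 for the first 4, and Meg3 had none. Of its 16128 genes, 80 had an adjusted p under 0.05. Each fold change was smaller in size than in the DESeq2 alternative used here, immune complex over saline (0.34 for Neat1, 0.44 for Meg3). The sizes should therefore not be set against the fitted values above, and the reason for the difference was not tested.

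For Malat1, Neat1 and Gas5 the libraries of each group differed more than the group means. Saline 2 over saline 1 and immune complex 1 over immune complex 2 gave 1.25 and 1.49 for Malat1, whose group means differed 1.10-fold. For Neat1 these were 1.99 and 2.40 against 1.27, and for Gas5 1.21 and 1.22 against 1.15. Snhg1 differed 1.81-fold between the saline libraries and 1.07-fold between the immune complex libraries. All 5 RNAs were higher in saline 2 than in saline 1, as were 50.4% of the tested genes, and all 5 were higher in immune complex 1 than in immune complex 2, as were 50.6%. Both held for 5 of 5 members, for 27.8% of all tested genes and for 41.2% of the 1019 tested long noncoding genes. This ordering was noticed in these values and was not tested.

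Library-wide measures moved with it. Intron reads over all genes were 8.29% and 8.90% of reads after saline, against 9.96% and 7.39%, so each group's library with more Neat1 also had more intron reads. Long noncoding genes took 1.27% and 1.41% of reads after saline, against 1.51% and 1.17%. Mitochondrial genes took 12.6% and 14.2% against 15.5% and 16.1%, which does not follow that order. Depth was 19675879 to 22791960 reads per library. The part of these measures in the levels of Malat1 and Neat1 was not tested.

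**Figure D4:**
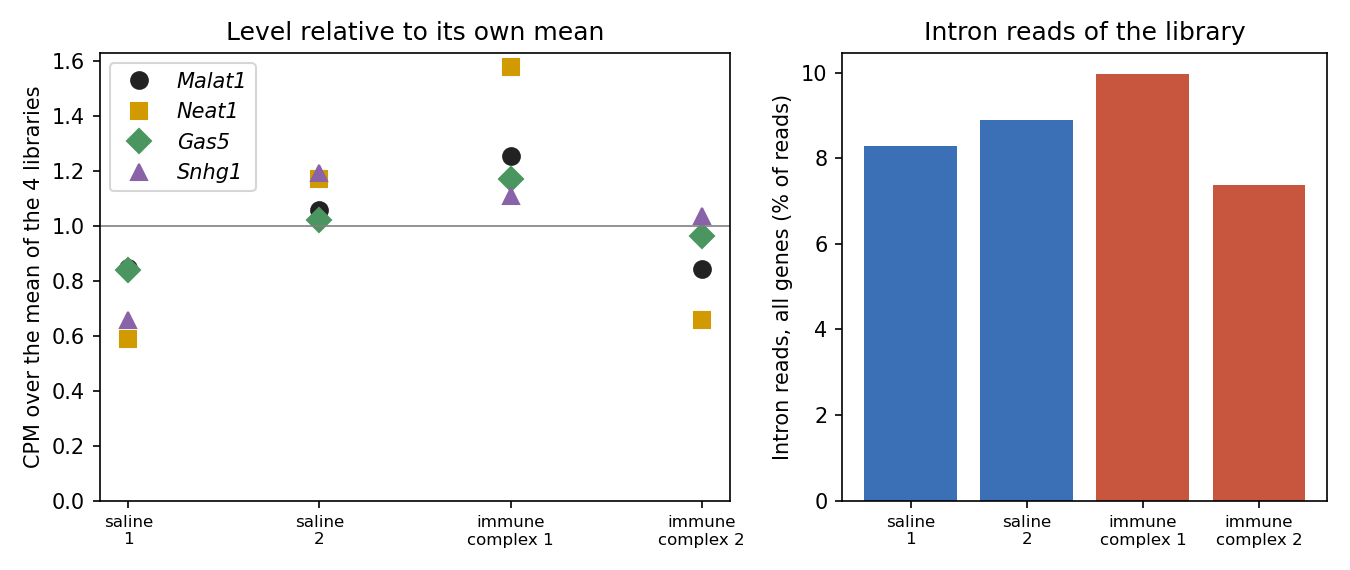
Left, CPM of 4 RNAs divided by the mean of the 4 libraries. Right, intron reads over all genes as percent of reads in each library. Neat1 is at 446.7 and 603.0 CPM in saline 2 and immune complex 1, the library of each group with the higher intron share (8.90% and 9.96%), and at 224.7 and 251.5 CPM in the other 2 libraries.

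Tissue markers also differed between the libraries. All 8 adipocyte markers were higher in both immune complex libraries, as were 15.4% of all tested genes. Their summed level was 56.9 and 634.5 CPM after saline, against 2074 and 1603 CPM. Lep, which encodes leptin, had 0 reads in saline 1 and 22 in saline 2, against 138 and 270. Fabp4, the adipocyte fatty acid binding protein, stood at 52.6 and 238.2 against 625.9 and 501.5 CPM, and Cidec, a lipid droplet protein, at 0.541 and 32.2 against 146.6 and 155.0 CPM. The adipocyte sum was lowest in saline 1, where Neat1, Gas5, Snhg1 and Meg3 were also lowest, but high in immune complex 2, where Neat1 was low.

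The 7 urothelium markers summed to 75.5 and 92.3 CPM after saline, against 16.4 and 18.3 CPM. Psca, an epithelial surface protein, stood at 46.3 and 26.8 against 3.76 and 4.30 CPM and Upk3b, a uroplakin of the urothelial and mesothelial surface, at 23.8 and 13.6 against 1.43 and 3.54 CPM, while Upk1a, another uroplakin, stood at 1.48 and 8.94 against 1.84 and 1.80 CPM. Without Psca and Upk3b the other 5 markers summed to 5.31 and 51.9 CPM against 11.2 and 10.5 CPM, so those 2 genes carry the sum of saline 1. The 5 erythroid markers summed to 534.1 and 473.3 CPM against 897.5 and 916.0 CPM. All 5 were higher in both immune complex libraries, as were 15.4% of all tested genes. Most of the sum came from the globin genes Hbb-bs, Hba-a1 and Hba-a2. The 8 macrophage markers summed to 160.7 and 167.7 CPM against 193.2 and 230.4 CPM. Adgre1, the F4/80 antigen, stood at 3.54 and 3.41 against 7.17 and 9.78 CPM. Csf1r, the largest part of the sum, stood at 80.0 and 99.4 against 77.6 and 105.6 CPM, with overlap. All 8 macrophage log2 fold changes were above 0, as were 51.9% of those of all tested genes. At an unadjusted edgeR p under 0.05 there were 3 of the 8, and 749 of all 16334 tested genes. Groups did not overlap for 5 of the 8, all higher, where 15.4% of all tested genes were so.

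Of the kidney's own cells, the 5 principal cell markers summed to 2026 CPM in saline 1 and 769.6 in saline 2, against 760.2 and 484.0 CPM. Aqp2, the water channel of these cells, had 1704 CPM in saline 1 and 544.3 in saline 2, against 528.0 and 301.9 CPM. Most of the sum thus came from Aqp2 in each library. Groups did not overlap for 2 of the 5 markers, both lower after immune complexes, where 14.6% of all tested genes were so. Scnn1b and Scnn1g, 2 others of the 5, stood at log2 fold changes of -0.06 ± 0.22 and -0.02 ± 0.18. Defining markers of proximal tubule, thick ascending limb, podocytes, endothelium and stroma were read in all 4 libraries, as the kidney label requires. The 5 proximal tubule markers summed to 5974 to 6702 CPM, the 4 thick ascending limb markers to 5227 to 7935, the 4 podocyte markers to 356.8 to 482.9, the 5 endothelial markers to 256.5 to 301.3 and the 6 stromal and pericyte markers to 110.1 to 125.1. In bulk tissue, fewer cells of a type and less RNA per cell cannot be told apart. Of these 10 sums, those of adipocyte and proximal tubule markers were higher in saline 2 than in saline 1 and in immune complex 1 than in immune complex 2, like the 5 RNAs, and the other 8 were not. Their part in the levels of the 5 RNAs was not tested.

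Other snoRNA and microRNA host RNAs were described beside Gas5 and Snhg1. Of 21 names, 17 were found and 16 tested. None passed the edgeR test, 11 had a fold change above 0 and 5 below, and the median log2 fold change was 0.15, against 0.01 over all tested genes. This median changed sign with the library left out, to -0.21 without immune complex 1 and -0.066 without saline 1, and was 0.40 without saline 2. Snhg5, a snoRNA host, had 33 and 50 reads after saline, against 66 and 63, and was the 1 tested member of this list whose groups did not overlap upward, with none downward. Over all tested genes these shares were 15.4% and 14.6%. The log2 fold change of Snhg5 was 0.57 ± 0.35 at an edgeR adjusted p of 1.0. Mir17hg, host of the miR-17 microRNA cluster, stood at 0.49 ± 0.45 and Mir22hg at -0.47 ± 0.44. Without saline 1, Snhg5 stood at 0.32 and Mir17hg at 0.11. Higher levels in saline 2 than saline 1 and in immune complex 1 than immune complex 2 together were seen in 12 of the 16. The same held for 27.8% of all tested genes and 41.2% of the tested long noncoding genes.

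Of 25 other named long noncoding RNAs, 14 were tested, none passed, 10 lay above 0 and the median was 0.16. It was -0.093 without immune complex 1 and 0.50 without immune complex 2. Xist, which silences an X chromosome in female cells, had 136.4 and 265.2 CPM after saline, against 317.9 and 267.5 CPM. Its groups did not overlap, though saline 2 and immune complex 2 lay side by side, and the log2 fold change was 0.54 ± 0.32, with 0.14 without saline 1, 1.09 without saline 2 and 0.34 on unique reads. Rian, a neighbour of Meg3 on the maternal chromosome, had 3, 11, 13 and 15 reads, in the library order above, and saline 1 was lowest here too. Its log2 fold change was 0.93 with all libraries and 0.31 without saline 1. Pvt1, the RNA beside Myc, stood at 2.02 and 3.45 against 4.08 and 3.21 CPM.

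The proteins that bind these RNAs were tested as well. Of 16 paraspeckle proteins, 8 had a fold change above 0 and 8 below, none passed, and the median was -0.01. Nono and Sfpq, which bind Neat1 to form paraspeckles, stood at log2 fold changes of 0.11 ± 0.19 and 0.05 ± 0.18, and Nono had 113.5 and 103.3 CPM against 105.1 and 128.2 CPM. Tardbp, the RNA-binding protein TDP-43, stood at 84.8 and 97.2 CPM after saline, against 111.2 and 124.6 CPM, without overlap, at 0.37 ± 0.18 and an edgeR adjusted p of 1.0. Rbm14, a protein needed for paraspeckles, stood at -0.58 ± 0.39 (-0.24 without saline 1) and Hnrnph3 at -0.30 ± 0.20. The summed level of the list was 1103 and 1062 CPM after saline, against 1076 and 1176 CPM, so it was highest in immune complex 2, where Neat1 was low.

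Of 23 nuclear speckle and SR splicing factors, 16 lay above 0 and 7 below, with a median of 0.11, and none passed. Srsf6 and Srsf2, SR proteins that bind exons, stood at 0.31 ± 0.18 and 0.35 ± 0.22, and Luc7l2, a U1 snRNP factor, at 0.25 ± 0.16. Groups did not overlap for 5 of the 23 factors upward and 1 downward, where 15.4% and 14.6% of all tested genes did so. Without saline 1 the median was 0.010. Among 14 factors of nonsense-mediated decay, the route that degrades spliced Gas5 and Snhg1, 5 lay above 0 and 9 below, none passed and the median was -0.04. Rbm8a, of the exon junction complex, stood at -0.22 ± 0.19 and Smg8, a regulator of the kinase Smg1, at -0.21 ± 0.21.

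None of the tested genes near the members passed. Of 10 neighbours of Malat1 and Neat1, 9 were tested, 2 lay above 0 and 7 below, and the median was -0.13. Fam89b stood at 4.18 and 4.21 CPM after saline, against 2.33 and 2.08 CPM, a log2 fold change of -0.93 ± 0.30 with an unadjusted p of 0.0197 and an edgeR adjusted p of 0.944. Cdc42ep2, an effector of Cdc42, stood at -0.40 ± 0.26 and Ltbp3, a TGF-beta binding protein, at -0.30 ± 0.23. Of 6 neighbours of Gas5 and Snhg1, 3 lay above 0 and 3 below, with a median of -0.02. Slc3a2, an amino acid transporter chain that lies beside Snhg1, had 169.3 and 347.2 CPM after saline, against 355.6 and 192.9 CPM, high and low in the same libraries as Neat1. Tmem223 stood at -0.33 ± 0.25 and Wdr74 at -0.15 ± 0.20.

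In the imprinted domain of Kcnq1ot1, 10 of 11 genes were tested, 5 lay above 0 and 5 below, and the median was -0.05. Cdkn1c, a cell cycle inhibitor that Kcnq1ot1 is known to silence on the paternal chromosome, stood at 0.05 ± 0.30, with 41.4 and 35.0 CPM against 51.2 and 28.0 CPM. Trpm5, a cation channel, had 14 and 13 reads in saline against 34 and 17 (0.83 ± 0.48), Phlda2 stood at 0.29 ± 0.25 and Cd81 at -0.18 ± 0.17. In the domain of Meg3, 5 of 8 genes were tested and none passed. Wdr25 stood at -0.48 ± 0.25, Begain at -0.99 ± 0.53 and Dlk1, the paternally expressed gene of that domain, at 0.66 ± 0.61 on 4 to 15 reads.

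For each RNA, the gene most like it was sought among 79 tested genes of the non-marker lists with a mean of at least 10 CPM, by Euclidean distance of log2 CPM, centred on each gene's own mean, over the 4 libraries. For Neat1 it was 6720401G13Rik (Firre, a nuclear long noncoding RNA), at a distance of 0.312 against a median of 1.12 over the 79. Firre had 22.8 and 43.4 CPM after saline, against 53.2 and 29.9 CPM. For Malat1 it was 1500012F01Rik (Zfas1, a snoRNA host), at 0.171 against 0.490, with 10.9 and 14.2 against 15.4 and 12.1 CPM.

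Gas5 was nearest to Ehbp1l1, at 0.0705 against a median of 0.432. Snhg1 was nearest to Clk1, a kinase of SR proteins, at 0.262 against 0.695, and Meg3 to Tsix, the antisense RNA of Xist, at 0.577 against 1.94. Tsix overlaps Xist, and without a stated strand setting their reads cannot be told apart. Among the members, Malat1 and Gas5 were the nearest pair, at 0.219, and Malat1 and Meg3 the farthest, at 1.66. With 4 libraries such a likeness is a description.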

How the data were processed

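RNA sequencing of mouse kidney gave 4 libraries, 2 of saline and 2 of immune complex samples. The deposited tables hold raw read counts per gene (total, unique, exon, intron and exon junction reads) and RPKM, per the file headers. The authors' comparison table gives a mean normalized signal, log2 fold changes, a test statistic (a score), p-values and counts, per the file headers. STAR 2.5.2b, DESeq2 and GRCm38 are named in the submitters' processing notes. Annotation release, strand setting and RNA selection are not given in the sources used. The test was edgeR 4.0.16 (R 4.3.3) on total gene reads, with filterByExpr, TMM scaling, glmQLFit, glmQLFTest, no block and a Benjamini-Hochberg adjusted p of 0.05. CPM uses TMM-scaled library sizes, SD is over 2 libraries, and shares have 95% Wilson intervals. The fit was tested on simulated data.

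Symbols were matched by name or gene ID. Biotypes and transcript ends came from GENCODE M21, promoter windows from RefSeq. The members and lists were chosen with earlier results of these data known. Named genes were the members, up to 3 genes of a list by unadjusted p and the gene nearest to each member; 1 gene taken by this rule is not reported here. The kidney structure lists are given as sums. Nono, Sfpq, Cdkn1c, Csf1r, Scnn1b and Scnn1g were added after their values were seen. DESeq2 1.42.0, limma 3.58.1 (voom), other scaling, no filter, exon reads, unique reads, no mitochondrial genes, a replicate block and leaving out each library were alternatives.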

Additional observations from a re-analysis of the deposited data

How the results depend on the processing

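No member passed at an adjusted p of 0.05 under any of the 13 alternatives. The number of genes past that threshold, 0 as reported, was 91 with DESeq2, 2 without the filter on low counts, 1 with unique reads and 55 with a replicate block, and was 0 to 279 when a library was left out. Where that leaves 1 library in a group, it is assumed to vary like the other group, and the highest counts came without saline 2 (279) and without saline 1 (47). Same-numbered libraries deviated in opposite ways (r = -0.13 over 16334 genes), and a block with crossed numbers, chosen after the data were seen, called 160 genes. The labels do not pair the numbers, and neither block called a member.

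With a library left out, the log2 fold change ran from -0.17 to 0.40 for Malat1, -0.42 to 0.92 for Neat1, -0.41 to 2.77 for Meg3, -0.15 to 0.69 for Snhg1 and 0.048 to 0.33 for Gas5. In the other 9 alternatives all 5 stayed above 0, but Meg3, at 0.43 as reported, moved to 1.06 with limma-voom, 0.73 with exon reads, 0.71 with the replicate block and 0.67 with crossed numbers. It also changed sign for 1500012F01Rik (-0.051 to 0.32), 6720401G13Rik (-0.15 to 0.85), Clk1 (-0.072 to 0.47), Mir22hg (-0.97 to 0.056), Slc3a2 (-0.42 to 0.69), Tsix (-0.43 to 1.48) and Upk1a (-2.30 to 0.29). The median changed sign when a library was left out for 6 of the 9 tested lists that hold no cell type markers and for 5 of the 10 marker lists (urothelium markers -1.52 as reported, 0.88 without saline 2), and the adipocyte median, 2.68, ran from 1.70 to 8.20. The causes were not tested. Of 46 named genes other than members, 12 passed the threshold under at least 1 alternative. Depth limits Meg3 most, with 2 to 20 reads a library.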
